A study of Mus musculus with 8 samples.

Results

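Arc and 9 other immediate early genes were followed in the cerebral cortex of mouse embryos in which Upf2 had been targeted. The 10 genes were chosen by name, as a set that neurons switch on within minutes of stimulation. They are Arc, the Fos family members Fos and Fosb, the AP-1 partner Junb, the zinc-finger factors Egr1 and Egr3, the neuronal factor Npas4, the orphan nuclear receptor Nr4a1, the small nuclear protein Ier2 and the phosphatase Dusp1. All 10 are present among the 55487 genes measured, and 9 of them had enough signal to be among the 16573 genes tested. Fosb did not: it reached 0.5 CPM (reads scaled to a common library total) in 1 library.

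Bulk RNA of cortex at E18.5 was sequenced in 8 libraries, 4 of controls and 4 of conditional mutants. Controls 1, 3 and 4 were Upf2 fl/fl and control 2 was Upf2 fl/+, and no Cre is named for any of them. The mutants, written Upf2cKO, were Upf2 fl/fl;Emx1-Cre. Upf2 works in nonsense-mediated mRNA decay (NMD), a pathway that degrades transcripts whose stop codon lies well upstream of an exon junction. Emx1-Cre recombines in the progenitors of the dorsal forebrain, the source of excitatory neurons and much of the glia of the cortex, whereas cortical interneurons, microglia and vessels come from elsewhere and keep Upf2. The labels do not say whether the samples came from separate litters, so each p-value reflects the spread among these libraries, which may be technical. They name a stranded kit made for total RNA and, for the molecule, polyA RNA, so it is unclear how RNA was selected.

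Immediate early genes are transcribed without new protein synthesis when calcium entry or growth factors activate kinases that act on Creb and Srf at their promoters. Most encode transcription factors, whereas Arc encodes a synaptic protein that promotes removal of AMPA-type glutamate receptors from the postsynaptic membrane. Their mRNAs are short-lived. The Arc mRNA carries introns after its stop codon and was described in rat as a natural substrate of NMD.

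Total reads assigned to genes were estimated at 96.5 to 155.9 M per library, so that 1 read was worth 0.0064 to 0.0104 CPM. The 9 tested genes rested on 94 to 3650 estimated reads per library and Fosb on 19 to 115. Upf2 itself was at 58.07 to 68.48 CPM in the controls and 135.33 to 153.61 CPM in the libraries labelled Upf2cKO, a 2.31-fold higher whole-gene total. That total cannot show the loss of a floxed exon, and it does not check the labels, so each direction below is between the libraries as labelled.

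The first replicate of each group stood apart from its group. In Upf2cKO 1, Mobp, a myelin gene, was at 57.37 CPM against 0.68 to 0.75 in the other Upf2cKO libraries, and Camk2a, a kinase subunit of mature excitatory neurons, was at 339.28 CPM against 41.54 to 45.22. Control 1 deviated the same way and by less, with Mobp at 9.09 CPM against 0.54 to 1.38 in controls 2 to 4 and Camk2a at 96.72 against 47.74 to 61.34. The summed CPM of 8 mature excitatory neuron markers was 709 to 893 in controls and 660 to 1402 in Upf2cKO, with 714 as the highest Upf2cKO value once replicate 1 was set aside. For the 8 oligodendrocyte lineage markers the sums were 297 to 408 and 237 to 644, with 243 as the highest Upf2cKO value without replicate 1. No marker of either list was at 0 in any library. Choroid plexus transcripts varied between libraries too, since Ttr was at 118.82 CPM in control 4 and 257.51 in Upf2cKO 4. Whether these transcripts belong to the embryonic cortex of the first replicates or came from other tissue was not tested. The change of each of the 9 tested genes is therefore given with all 8 libraries, without Upf2cKO 1, and without both first replicates. Leaving out each library in turn was planned, but the fit without Upf2cKO 1 was singled out after these values were seen. The fit without both first replicates was not planned and was chosen after they were seen.

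RefSeq promoters (GRCm38.p6, the assembly also called mm10) were at hand for 6 of the 10 genes, namely Fos, Fosb, Junb, Npas4, Nr4a1 and Dusp1. Each runs from 250 bases before to 50 bases after the RefSeq start, which may lie inside the longer gene model used for the counts. For Junb that start lies upstream of the gene model instead. The promoters of the pair of genes that rose, Nr4a1 and Junb, and of a pair that did not pass the test, Fos and Dusp1, are shown so that their regulatory letters can be compared. Capitals mark the half-site of the cyclic AMP response element (CRE), to which Creb binds, written TGACG on the strand shown or CGTCA for the other strand. They are given 5′ to 3′ on the strand of the gene, at chr15:101266596-101266895 (+) for Nr4a1, chr8:84978699-84978998 (-) for Junb, chr12:85473640-85473939 (+) for Fos and chr17:26508423-26508722 (-) for Dusp1.
Nr4a1: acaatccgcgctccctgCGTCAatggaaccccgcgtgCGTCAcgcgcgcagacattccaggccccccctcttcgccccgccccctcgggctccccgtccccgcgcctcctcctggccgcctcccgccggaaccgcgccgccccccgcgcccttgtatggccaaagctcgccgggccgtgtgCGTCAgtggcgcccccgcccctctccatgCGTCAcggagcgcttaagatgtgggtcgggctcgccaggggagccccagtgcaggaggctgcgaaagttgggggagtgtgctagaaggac
Junb: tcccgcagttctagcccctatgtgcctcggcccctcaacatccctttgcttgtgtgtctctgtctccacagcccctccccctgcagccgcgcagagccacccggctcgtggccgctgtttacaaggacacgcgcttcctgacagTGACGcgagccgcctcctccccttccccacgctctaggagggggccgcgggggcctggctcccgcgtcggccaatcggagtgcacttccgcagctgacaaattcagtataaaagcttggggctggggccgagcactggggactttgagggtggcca
Fos: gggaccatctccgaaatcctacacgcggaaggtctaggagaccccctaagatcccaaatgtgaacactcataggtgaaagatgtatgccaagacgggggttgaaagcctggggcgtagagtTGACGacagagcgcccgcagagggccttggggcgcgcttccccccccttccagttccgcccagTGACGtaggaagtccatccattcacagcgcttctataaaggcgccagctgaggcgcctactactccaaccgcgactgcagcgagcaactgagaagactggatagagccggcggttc
Dusp1: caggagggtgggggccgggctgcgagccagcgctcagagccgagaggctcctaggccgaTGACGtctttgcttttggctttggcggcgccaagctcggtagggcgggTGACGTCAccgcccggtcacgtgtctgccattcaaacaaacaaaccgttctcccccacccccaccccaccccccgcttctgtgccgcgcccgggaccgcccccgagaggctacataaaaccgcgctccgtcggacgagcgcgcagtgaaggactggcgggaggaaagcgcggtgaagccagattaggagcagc

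All 6 promoters held at least 1 CRE half-site on either strand, against 20.8% of the 32851 promoters of the same length. Nr4a1 held 4, which began 233, 213, 69 and 40 bases before the start. Junb held 1, at 106 bases, and Fos held 2, at 129 and 66 bases. Dusp1 held 3, at 191, 143 and 140 bases, and the latter pair overlap within a full palindromic CRE, TGACGTCA, which was present in 1.79% of all promoters and in no other of the 6. Fosb had a half-site 60 bases before its start, and Npas4 had 2, at 179 and 169 bases. The letters TATAAA, searched on the strand of the gene alone, were found in Fos and Junb and in 8.32% of all promoters. They began 33 bases before the start in Fos but at the start itself in Junb, so distances in Junb depend on where its start is set. The CArG box, the Srf motif, matched in none of the 6 windows and in 1.63% of all promoters. Only exact matches inside these windows were sought, so Srf sites further upstream or with a differing letter would be missed. These matches describe letters and do not show that a factor bound. Genes with half-sites were found among those that rose and among those that did not pass the test.

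Of the 9 tested genes, 2 were higher in Upf2cKO, 0 were lower and 7 did not pass (limma on log2(CPM + 0.1), Benjamini-Hochberg adjusted p under 0.05 over all 16573 genes). Over all tested genes 63.0% passed, with 36.7% higher and 26.3% lower, so 2 of 9 is not a large share. The pair that rose was Nr4a1 and Junb, in which every Upf2cKO library lay above every control; such separation was seen in 56.6% of tested genes, upward in 34.3% and downward in 22.3%. The other 8 of the 10 overlapped between the groups. At an unadjusted p under 0.05, 1 gene, Dusp1, was lower. The median log2 change of the 9 genes was 0.06, against 0.04 over all tested genes. In a bulk tissue, fewer cells of a type and less RNA per cell cannot be told apart.

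**Figure D1:**
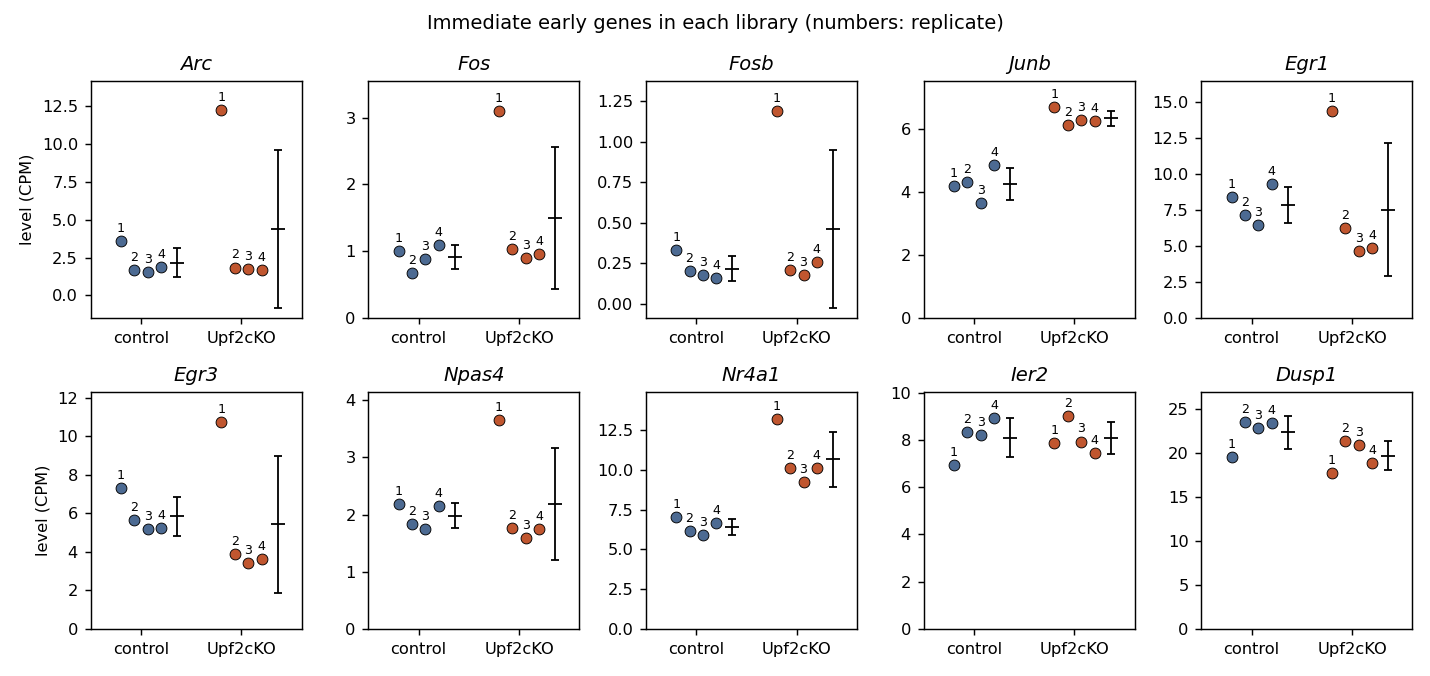
Level of each of the 10 genes in CPM (linear axes, a scale for each gene) in every control (blue) and Upf2cKO (orange) library, with replicate numbers, and the group mean with SD (n = 4) beside the points. Nr4a1 and Junb separate the groups, while in Arc, Fos, Fosb, Egr1, Egr3 and Npas4 a single point, Upf2cKO 1, lies far above the rest.

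Compared on TPM, which divides by gene length, the control levels ran from Fosb at 0.135 ± 0.0507 TPM (SD, n = 4) to Dusp1 at 26.7 ± 2.03. Between them came Fos at 1.54 ± 0.301, Npas4 at 1.90 ± 0.210, Arc at 2.82 ± 1.26 and Egr3 at 5.26 ± 0.943. Egr1 followed at 6.93 ± 1.07, Nr4a1 at 7.26 ± 0.585, Junb at 9.30 ± 0.983 and Ier2 at 21.0 ± 1.98. The control ranges of neighbours from Fos up to Nr4a1 overlapped. Within each of the 4 controls, though, the order was Fos, Npas4, Arc, Egr3 and Egr1, and Egr1 changed places with Nr4a1 in control 4 alone, at 8.12 against 7.39 TPM. Arc and Egr3 met only through control 1, where Arc was at 4.70 TPM. The steps from Fosb to Fos, from Nr4a1 to Junb, from Junb to Ier2 and from Ier2 to Dusp1 did not overlap. In Upf2cKO, Arc had a mean of 5.90 TPM and a median of 2.46, with 16.4 TPM in the highest library, so that its place in the order depended on the summary used. Nr4a1 and Junb reached 12.6 ± 1.95 and 14.5 ± 0.523 TPM in Upf2cKO and kept their places between Egr1 and Ier2.

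Arc, the synaptic effector of the set, lies at chr15:74669083-74672570 on the minus strand. In order of replicate number, the controls read 3.59, 1.67, 1.57 and 1.87 CPM and the Upf2cKO libraries 12.24, 1.85, 1.78 and 1.68 CPM, the order used for every gene below. The 3 lower libraries of each group covered nearly the same range, and the first replicate was highest in both groups. With all 8 libraries the means were 2.18 ± 0.952 and 4.39 ± 5.24 CPM, and the log2 change of 0.48 (SE 0.56) did not pass (limma adjusted p = 0.480). Its 95% interval, from −0.77 to 1.72, allows a fall as well as a rise of more than 3 times. Without Upf2cKO 1 the log2 change turned to −0.20 (adjusted p = 0.466). Without both first replicates it was 0.05 (adjusted p = 0.723), with an interval from −0.22 to 0.33, which bounds an Arc difference between the remaining 6 libraries on both sides.

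The structure named for Arc in the background could be read in the annotation. Both coding transcripts of Arc have 2 exon junctions more than 55 nt after the stop codon, the last of them 757 nt downstream in one and 754 nt in the other. Among the 10 genes, no other protein-coding transcript that is complete in the annotation has a junction there. The sole further case is an Npas4 transcript annotated as a target of decay, whose last junction lies 1559 nt after the stop. Of 14018 tested genes with a complete coding transcript, 27 (0.193%) carry such a junction in every one, as Arc does. Of those 27 genes 40.7% were higher and 14.8% lower, with a median log2 change of 0.25, which was 0.08 without both first replicates. The other 13991 genes were higher in 36.2% and lower in 28.5%, with a median of 0.02, which was 0.0037 without both first replicates. Gene totals separate neither isoforms, nor transcription from decay, nor levels per cell from the mix of cells. None of these values therefore measures the decay of a transcript.

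Fos, a partner of Junb in the AP-1 dimer, lies at chr12:85473890-85477273 on the plus strand. Its levels were 1.00, 0.68, 0.88 and 1.10 CPM in controls and 3.09, 1.03, 0.90 and 0.96 CPM in Upf2cKO. Libraries 2 to 4 of Upf2cKO lay within the control range, and Upf2cKO 1 was about 3 times as high. The log2 change was 0.48 (SE 0.34, limma adjusted p = 0.236) with all libraries, 0.08 without Upf2cKO 1 (adjusted p = 0.682) and 0.13 without both first replicates (adjusted p = 0.560). Its paralog Fosb, at chr7:19302696-19310051 (minus strand), read 0.33, 0.20, 0.18 and 0.16 CPM in controls and 1.19, 0.21, 0.18 and 0.26 CPM in Upf2cKO. Fosb was highest in Upf2cKO 1, as Fos was, and its highest control was control 1, as for Arc and unlike Fos. It stayed below the filter in the other 7 libraries. When no filter was applied, the log2 change of Fosb was 0.53 (adjusted p = 0.456).

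Junb, the Jun family partner in AP-1, lies at chr8:84974484-84978718 on the minus strand. It read 4.18, 4.32, 3.64 and 4.85 CPM in controls and 6.68, 6.12, 6.29 and 6.26 CPM in Upf2cKO. The groups did not overlap, and unlike Fos, Junb in Upf2cKO 1 was 1.07 times the mean of the other 3 Upf2cKO libraries. Junb rose 1.49-fold, from 4.25 ± 0.497 to 6.34 ± 0.240 CPM (log2 change 0.57, SE 0.093, limma adjusted p = 0.000311). The change held without Upf2cKO 1 (log2 0.55, adjusted p = 0.000594) and without both first replicates (log2 0.54, adjusted p = 0.00122). Junb overlaps Prdx2 on the opposite strand, and since the strand setting of the count is not given, reads of the 2 genes may be mixed.

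Nr4a1, an orphan nuclear receptor (also called Nur77) induced by calcium and by T cell and growth factor signals, lies at chr15:101254269-101274795 on the plus strand. It read 7.03, 6.15, 5.88 and 6.64 CPM in controls and 13.20, 10.12, 9.22 and 10.12 CPM in Upf2cKO. Each Upf2cKO library exceeded each control. Nr4a1 rose 1.64-fold, from 6.43 ± 0.512 to 10.7 ± 1.74 CPM (log2 change 0.71, SE 0.11, limma adjusted p = 0.000214). Without Upf2cKO 1 the log2 change was 0.61 (adjusted p = 6.86e-05) and without both first replicates 0.65 (adjusted p = 4.35e-05). Upf2cKO 1 was 1.34 times the mean of Upf2cKO 2 to 4 for Nr4a1. Microglial markers moved in the same comparison, with 7 of 9 higher and 0 lower (0 also at an unadjusted p under 0.05), against 36.7% and 26.3% of all tested genes. Their summed CPM was 40.9 to 57.9 in controls and 112 to 161 in Upf2cKO. Interneuron markers rose in this comparison too, with 9 of 10 higher and 1 lower. The part of either cell type in the rise of Nr4a1 and Junb, which microglia can also express, was not tested.

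Egr1, a zinc-finger factor in wide use as a marker of neuronal activity, lies on chromosome 18 on the plus strand. It read 8.40, 7.18, 6.48 and 9.33 CPM in controls and 14.40, 6.26, 4.67 and 4.86 CPM in Upf2cKO. Upf2cKO 1 was the highest of all 8, while Upf2cKO 2 to 4 lay below every control. The log2 change of Egr1 over all libraries, −0.20 (SE 0.30), did not pass (limma adjusted p = 0.578). Without Upf2cKO 1, Egr1 fell 1.48-fold, from 7.85 ± 1.27 to 5.26 ± 0.868 CPM (log2 −0.57, adjusted p = 0.00371). Without both first replicates the log2 change was −0.53 (adjusted p = 0.00810).

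Egr3, a zinc-finger factor of the same family, lies at chr14:70077203-70082614 on the plus strand. Its levels were 7.33, 5.64, 5.17 and 5.25 CPM in controls and 10.74, 3.90, 3.44 and 3.63 CPM in Upf2cKO. The arrangement was that of Egr1: the first Upf2cKO library lay above all controls and the other 3 below them. The log2 change over all libraries was −0.27 (SE 0.31, limma adjusted p = 0.475). Egr3 fell 1.57-fold without Upf2cKO 1 (log2 −0.65, adjusted p = 0.000734) and by 0.54 on the log2 scale without both first replicates (adjusted p = 0.000475). In those 6 libraries the controls ranged from 5.17 to 5.64 CPM and Upf2cKO from 3.44 to 3.90. For the whole table, 28.9% of genes were lower without Upf2cKO 1 and 27.8% without both first replicates. Upper-layer neuron markers fell in the comparison of all 8 libraries, 7 of 8 lower and 0 higher (0 also at an unadjusted p under 0.05), against 26.3% and 36.7% of all tested genes. Their summed levels were 2243 to 2396 CPM in controls and 1328 to 1545 in Upf2cKO. Of the deep-layer neuron markers, 5 of 8 were lower and 2 higher. Of the endothelial markers, 8 of 10 were lower and 0 higher (0 also at an unadjusted p under 0.05). Whether the changes of these marker lists bear on Egr1 and Egr3 was not tested.

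Npas4, a factor induced by calcium entry in neurons, lies at chr19:4984355-4990316 on the minus strand. It read 2.19, 1.84, 1.75 and 2.15 CPM in controls and 3.65, 1.77, 1.59 and 1.75 CPM in Upf2cKO. Without the first Upf2cKO library the 3 others overlapped the lower controls. The log2 change of Npas4 was 0.06 (SE 0.23, limma adjusted p = 0.83) with all libraries, −0.20 (adjusted p = 0.167) without Upf2cKO 1 and −0.16 (adjusted p = 0.316) without both first replicates.

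Ier2, a nuclear protein of the early serum response, lies at chr8:84661331-84662852 on the minus strand. It read 6.93, 8.33, 8.19 and 8.91 CPM in controls and 7.86, 9.02, 7.93 and 7.46 CPM in Upf2cKO. The groups overlapped throughout, with means of 8.09 ± 0.834 and 8.07 ± 0.668 CPM. The 95% interval of the log2 change ran from −0.21 to 0.20 (limma adjusted p = 0.990), which bounds a change of Ier2 in this comparison on both sides. The log2 change was 0.0096 without Upf2cKO 1 (adjusted p = 0.939) and −0.062 without both first replicates (adjusted p = 0.564). Upf2cKO 1 was not the highest library for Ier2, and control 1 was the lowest control.

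Dusp1 encodes a phosphatase that dephosphorylates MAP kinases and so ends the signal that induces it. Its gene model spans chr17:26505590-26562128 on the minus strand and overlaps 4 other annotated genes, so its count may hold reads of others. Dusp1 read 19.60, 23.54, 22.81 and 23.41 CPM in controls and 17.75, 21.31, 20.89 and 18.87 CPM in Upf2cKO. The first replicate was lowest in both groups, the reverse of Arc, and control 1 alone brought the controls into the range of Upf2cKO. The means were 22.3 ± 1.85 and 19.7 ± 1.68 CPM, a 1.13-fold lower level that missed the threshold (log2 −0.18, SE 0.078, limma adjusted p = 0.0668). Without Upf2cKO 1 the log2 change was −0.13 (adjusted p = 0.149). Without both first replicates Dusp1 was lower by 0.19 on the log2 scale and passed (adjusted p = 0.0204), as it also did without control 1 (adjusted p = 0.0152) and without Upf2cKO 2 (adjusted p = 0.0443). Rescaling took it past the threshold too, with an adjusted p of 0.0153 under the median of ratios and 0.00962 under the trimmed mean, while on TPM it was 0.228.

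Left-out libraries changed which genes passed. Without Upf2cKO 1, 2 of 9 were higher (Junb and Nr4a1) and 2 lower (Egr1 and Egr3), against 34.4% and 28.9% of tested genes, and in these same 4 genes the groups did not overlap, against 34.2% of genes upward and 28.0% downward. Without both first replicates, 2 were higher and 3 lower, with Dusp1 added, against 34.3% and 27.8% of genes. In those 6 libraries the groups of the same 5 genes did not overlap, against 36.4% of genes upward and 30.2% downward.

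**Figure D2:**
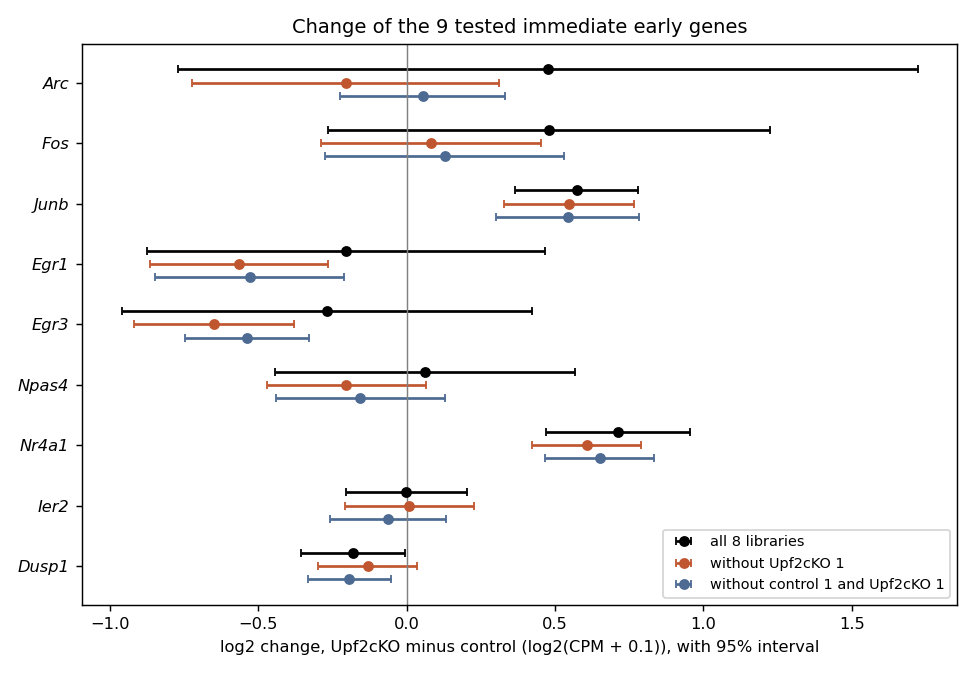
Log2 change (Upf2cKO minus control, on log2(CPM + 0.1)) with its 95% interval for the 9 tested genes, from all 8 libraries (black), without Upf2cKO 1 (orange) and without control 1 and Upf2cKO 1 (blue). Junb and Nr4a1 stay above 0 in all 3 fits. The intervals of Arc, Egr1 and Egr3 narrow when Upf2cKO 1 is left out, and those of Egr1 and Egr3 then lie below 0.

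The first replicates did not raise the 10 genes evenly. Upf2cKO 1 was the highest of all 8 libraries for 8 of the 10, where 16.5% of tested genes had it highest, and it was more than 2 times the mean of the other Upf2cKO libraries for 6 of them, against 2.05% of tested genes. That ratio was 6.92 for Arc, 5.49 for Fosb, 3.21 for Fos, 2.94 for Egr3, 2.74 for Egr1 and 2.14 for Npas4. It was near or below 1 for Junb, Ier2 (0.966) and Dusp1 (0.872). Control 1 was the highest control for 5 of the 10 genes, against 33.1% of tested genes, and exceeded the mean of controls 2 to 4 by 2.11 times for Arc and 1.83 times for Fosb. Among the markers that moved with it, the same ratios in Upf2cKO 1 and control 1 were 13.4 and 2.07 for Mbp, a myelin protein, and 7.88 and 1.75 for Camk2a. Other markers of mature excitatory neurons moved less, with 2.02 and 1.28 for Slc17a7 and 1.67 and 1.05 for Snap25. The part of mature brain transcripts in the values of the 6 genes was not tested.

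**Figure D3:**
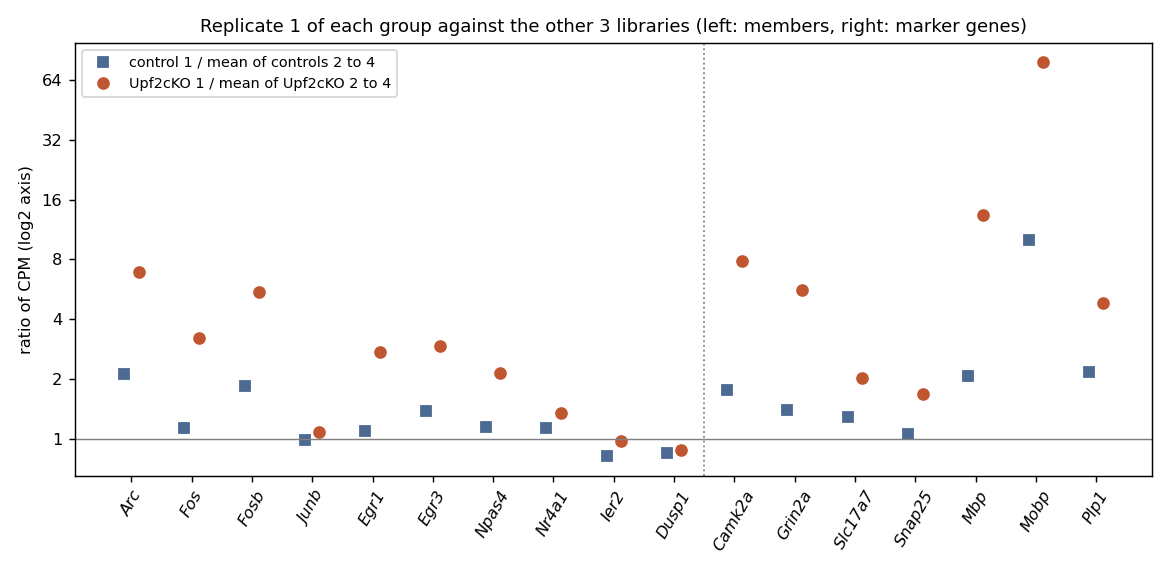
Level in replicate 1 divided by the mean of the other 3 libraries of its group (ratio of CPM, log2 axis), for control 1 (blue squares) and Upf2cKO 1 (orange circles), with the 10 immediate early genes on the left and 7 marker genes of mature neurons and myelin on the right. Arc at 6.92 and Fosb at 5.49 approach the ratio of Camk2a at 7.88, whereas Junb, Ier2 and Dusp1 stay close to 1. The other neuron markers plotted are lower than Camk2a in Upf2cKO 1, with Grin2a at 5.64, Slc17a7 at 2.02 and Snap25 at 1.67.

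Genes with the profile most like that of Arc over the 8 libraries were sought by the smallest root mean square difference of log2 deviations from each gene's own mean. The 5 closest were Myrf (0.114), a transcription factor of myelinating oligodendrocytes, Lgi3 (0.132), Slc24a2 (0.182), Lynx1 (0.199) and Camk2a (0.204). All 5 were highest in Upf2cKO 1 and second in control 1. Myrf, for example, read 4.95 CPM in Upf2cKO 1, 1.24 in control 1 and 0.51 to 0.72 in the other libraries. For Fos the closest were Rasd2 (0.152), Smoc2 (0.184), Il16 (0.190), Rab26 (0.192) and Hipk4 (0.202), all highest in Upf2cKO 1. These likenesses rest largely on Upf2cKO 1 and are a description over 8 libraries.

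Other genes of the same response were counted from lists. Counts of these lists and of the markers beside them stand against 36.7% higher and 26.3% lower over all tested genes. With all libraries 4359 of 16573 genes were lower, and on TPM 3328 of 19986. Under the median of ratios 5783 of 16523 were lower, and under the trimmed mean 6077 of 16526. Of 19 further immediate early transcription factors, 17 were tested and 3 rose, 7 fell and 7 did not pass, with a median log2 change of −0.21 against 0.04 for all genes. Nr4a3, a close relative of Nr4a1, moved opposite to it and fell 1.58-fold, from 170 ± 11.5 to 107 ± 4.03 CPM (limma adjusted p = 1.45e-06). Fosl2, a Fos family member, fell 1.32-fold, from 112 ± 1.08 to 84.6 ± 3.82 CPM (adjusted p = 7.18e-06). Atf3, a stress-induced factor of the Atf family, rose 3.35-fold from a low level, 0.495 ± 0.126 to 1.87 ± 0.234 CPM (adjusted p = 5.63e-06). The count of those lower was 11 when libraries were rescaled by the median of ratios or the trimmed mean.

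Among 20 immediate early genes that encode no such factor, 5 rose, 7 fell and 8 did not pass, with a median log2 change of −0.07. Gadd45g, which responds to stress and marks differentiating progenitors, rose 3.60-fold, from 9.55 ± 0.798 to 34.6 ± 2.06 CPM (limma adjusted p = 6.82e-09). Its relative Gadd45b rose 1.79-fold, from 1.72 ± 0.186 to 3.16 ± 0.369 CPM (adjusted p = 9.16e-05). Plk2, a kinase that weakens synapses after prolonged activity, fell 1.29-fold, from 221 ± 12.7 to 171 ± 1.48 CPM (adjusted p = 3.17e-05). Of 22 activity-dependent effector genes of neurons, 21 were tested and 5 rose, 7 fell and 9 did not pass, with a median of −0.20. Homer1, a postsynaptic scaffold, fell 1.30-fold (adjusted p = 0.000269) and Syt4, a vesicle protein, fell 1.43-fold (adjusted p = 0.00112). Amigo3, a cell adhesion protein, rose 1.54-fold (adjusted p = 0.000131). Sst, the interneuron peptide, rose 1.90-fold (adjusted p = 8.88e-06). Of 10 interneuron markers, a list that holds Sst itself, 9 rose and 1 fell. Their summed levels, Sst included, were 500 to 553 CPM in controls and 696 to 819 in Upf2cKO. Whether the interneuron share accounts for Sst was not tested. Without Upf2cKO 1 the number of effector genes that fell was 12, without both first replicates 11, and on TPM 4.

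The kinases and factors upstream of these genes were counted next. Of the 9 genes of the Srf group, 5 fell and 0 rose (limma, 0 also at an unadjusted p under 0.05), with a median log2 change of −0.20. Ets2 fell 1.62-fold (adjusted p = 4.74e-06), and of the Elk factors, which bind DNA beside Srf, Elk4 fell 1.25-fold (adjusted p = 0.000735) and Elk3 1.18-fold (adjusted p = 0.00814). Elk1, the most abundant of the group, had a log2 change of 0.08 (adjusted p = 0.229). The count of those lower was 3 on TPM, without control 4, without Upf2cKO 3 and without control 4 and Upf2cKO 4, and 8 with the trimmed mean. Of 12 genes of the Creb group, 3 rose, 4 fell and 5 did not pass, with a median of −0.07, and 7 fell under either rescaling. The Creb coactivators Crtc2 and Crtc3 rose 2.14-fold, from 26.4 ± 1.52 to 56.7 ± 2.19 CPM, and 1.93-fold, from 35.9 ± 2.37 to 69.3 ± 4.16 CPM (adjusted p = 2.72e-08 and 2.51e-07). Mef2c, a factor of excitatory neurons and also of microglia, fell 1.51-fold, from 992 ± 101 to 656 ± 32.5 CPM (adjusted p = 2.70e-05).

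Of 21 calcium-dependent kinases, phosphatase subunits and channels, 4 rose, 10 fell and 7 did not pass, with a median log2 change of −0.16. Cacna1c, the L-type channel subunit that couples calcium entry to Creb, rose 1.41-fold (limma adjusted p = 3.33e-05), while the calmodulin gene Calm2 fell 1.35-fold (adjusted p = 4.55e-05). Counted on TPM, 6 fell, and 4 fell without control 4 and Upf2cKO 4. Of 20 genes of the Erk kinase cascade, 3 rose, 4 fell and 13 did not pass, with a median of −0.08. Braf rose 1.33-fold (adjusted p = 3.85e-05), Nras fell 1.35-fold (adjusted p = 3.17e-05) and Araf fell 1.20-fold (adjusted p = 0.000321). The number of cascade genes that fell was 8 without Upf2cKO 1 or without both first replicates, and 11 under either rescaling.

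Another list held 16 genes taken as feedback inhibitors and transcriptional targets of Erk. It includes relatives of Dusp1, some of which, such as Dusp8, act mainly on other MAP kinases. Of the 16, 14 fell and 0 rose (limma, 0 also at an unadjusted p under 0.05), with a median log2 change of −0.32. Over all tested genes 26.3% fell and 36.7% rose. The same counts of 14 and 0 were found without both first replicates, and 1 rose on TPM. Etv5, a factor induced by fibroblast growth factor signals, fell 1.64-fold, from 92.8 ± 4.86 to 56.7 ± 4.84 CPM (adjusted p = 3.00e-06). Dusp6, the Erk phosphatase, fell 1.38-fold, from 42.7 ± 2.02 to 31.0 ± 1.63 CPM (adjusted p = 2.55e-05). Spred2 and Dusp8 fell 1.29-fold and 1.22-fold (adjusted p = 1.03e-05 and 0.000191). Radial glia markers fell in the same libraries, 8 of 10 lower and 0 higher (0 also at an unadjusted p under 0.05). Their summed levels were 1323 to 1382 CPM in controls and 885 to 1045 in Upf2cKO. Endothelial markers fell as well, with 8 of 10 lower and 0 higher (0 also at an unadjusted p under 0.05). The part of either cell type in the fall of the listed genes was not tested.

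Of 16 partners of Arc and proteins of its turnover, 3 rose, 11 fell and 2 did not pass, with a median log2 change of −0.15. Gria2 and Gria1, subunits of the AMPA receptors that Arc helps to remove, moved in opposite directions. Gria2 fell 1.61-fold, from 991 ± 66.9 to 615 ± 21.1 CPM, and Gria1 rose 1.53-fold, from 229 ± 6.34 to 354 ± 47.9 CPM (limma adjusted p = 1.29e-06 and 6.99e-05). Dnm2, a dynamin that binds Arc, rose 1.45-fold, from 85.3 ± 3.98 to 124 ± 6.47 CPM (adjusted p = 4.39e-06). The number of partners that fell was 4 on TPM and 7 without control 2. Of 9 proteins that bind AU-rich elements, which shorten the life of mRNAs such as Fos, 2 rose, 0 fell (0 also at an unadjusted p under 0.05) and 7 did not pass, with a median of 0.03. Tia1 rose 1.20-fold (adjusted p = 0.00844) and Auh 1.11-fold (adjusted p = 0.0190), and neither passed under the median of ratios or the trimmed mean. The number that rose was 1 without control 1, without Upf2cKO 3, without both first replicates or without control 4 and Upf2cKO 4. The number that fell was 1 under the median of ratios, 2 under the trimmed mean or without Upf2cKO 4, and 3 without control 4 and Upf2cKO 4. Elavl3, the most abundant of them, had a log2 change of 0.02 (adjusted p = 0.738).

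**Figure D4:**
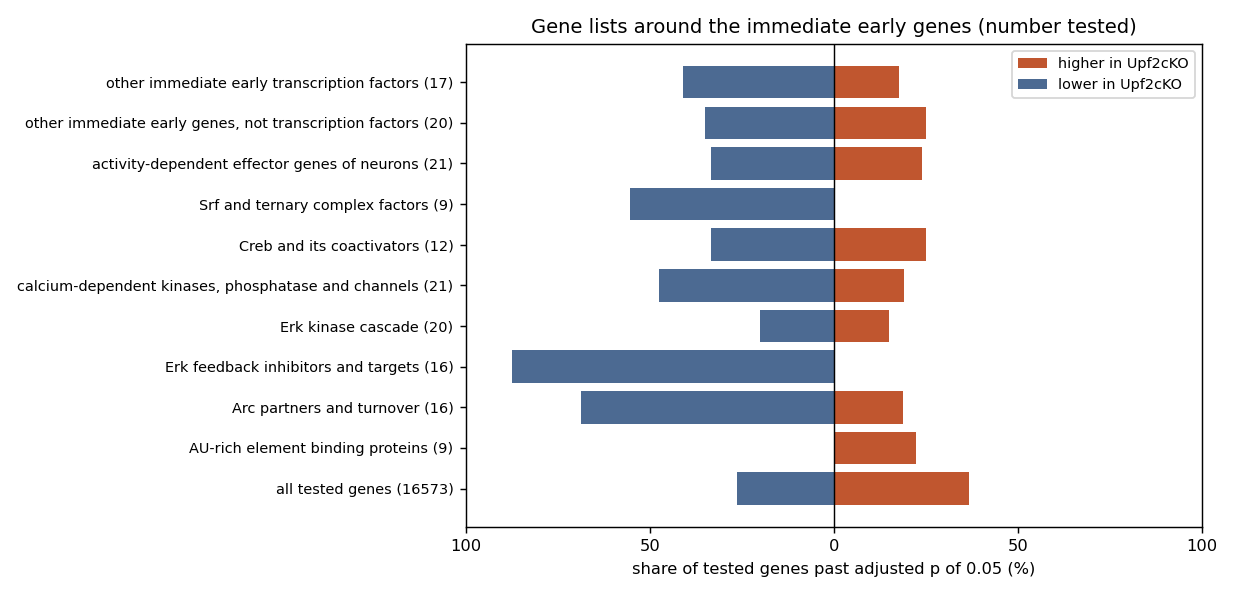
Share of the tested genes of each list that were lower (blue, to the left) or higher (orange, to the right) in Upf2cKO at an adjusted p under 0.05 (percent), with the number tested in brackets and all tested genes at the bottom. Erk feedback inhibitors and targets, with 14 of 16 lower, and Arc partners, with 11 of 16 lower, reach furthest to the left.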

How the data were processed

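The authors deposited a CPM and a TPM value per gene and library. Per the submitters' processing notes, which give no roles, the build was mm10 and the tools included STAR 2.7.11a, fastp 0.23.4, Picard 3.1.1, DESeq2 and MultiQC 1.25. Neither the tool that counted reads nor its strand setting or annotation is named in those sources. Within rounding, every deposited CPM column has an equal sum, so values are shares of a library. The deposited TPM columns are in addition divided by gene length, and were used for levels between genes.

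Symbols, coordinates and transcripts came from a GENCODE annotation of mm10, which named 55227 of 55487 identifiers. Depth was estimated from the steps between TPM values of genes up to 120 nt with a single exon, 674 to 857 values per library, of which 100.0% came out whole within 0.15 reads. Rounding to 2 decimals hides single reads of other genes, so no test on counts was run. A gene entered the test when 4 or more of the 8 libraries had 0.5 CPM or more. Two-sided limma 3.58.1 under R 4.3.3, fitted with a trend on intensity, used values of log2(CPM + 0.1), and p-values were Benjamini-Hochberg adjusted over 16573 genes, with 0.05 as the threshold. Folds are on that scale and understate changes of low genes. All adjusted p-values are limma's. The fit and the depth estimate were also checked on simulated data. The labels name no batch.

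The genes studied and the lists were chosen with earlier results of these data known. Some genes that the naming rule takes are not reported here. Genes named are the 10 members, Upf2, the 3 genes of each list with the smallest adjusted p past the threshold and its most abundant gene, and the 5 genes most like Arc and Fos among those with a mean of at least 1 CPM. Mobp, Ttr, Ptgs2, Rasgrp1, Nptx1 and the marker genes plotted were chosen after their values were seen. Alternatives were other pseudocounts, filters, TPM, both rescalings, limma settings, a replicate block and leaving out libraries.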

Additional observations from a re-analysis of the deposited data

Results flagged for a closer look

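In each group of 4 libraries, the gap from the highest or lowest library to its nearest neighbour was set against the whole range. Over 110 combinations of a named gene and a group, 21 passed Dixon's 95% critical value, 16 of them in Upf2cKO 1 and 3 in control 1. The 10 genes named for a profile like that of Arc or Fos were chosen on this shape, so their values restate the choice. Without them, 12 of 90 combinations passed, 8 in Upf2cKO 1 and 2 in control 1, where chance gives about 1 in 20. Those genes share the libraries and are not independent.

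In Upf2cKO 1, Arc at 12.2 CPM, Fos at 3.09, Fosb at 1.19, Egr1 at 14.4, Egr3 at 10.7 and Npas4 at 3.65 stood far above the other 3 Upf2cKO libraries. Arc was also far above its group in control 1, at 3.59 CPM. The genes closest to Arc, which the choice by profile fixed to have the same library apart, were Myrf at 4.95 CPM, Lgi3 at 8.38, Slc24a2 at 68.3, Lynx1 at 40.4 and Camk2a at 339 in Upf2cKO 1. Lgi3 was apart in control 1 too, at 2.24 CPM. Of the genes closest to Fos, Rasd2 at 6.60 CPM, Il16 at 3.22 and Hipk4 at 4.80 were apart in Upf2cKO 1. Gadd45b, at 3.71 CPM, and Calm2, at 694 CPM, were high in Upf2cKO 1.

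The rest were single values. Elk1 was high in control 1, at 65.5 CPM. Gadd45g was high in Upf2cKO 3, at 37.7 CPM. Spred2 was low in Upf2cKO 4, at 64.5 CPM.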

How the results depend on the processing

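Junb and Nr4a1 were the 2 of the 10 genes called higher under every alternative run. The count called lower was 0 with all libraries, 1 under the median of ratios, the trimmed mean or the replicate block (Dusp1 each time), and 0 to 2 when 1 library was left out. It was 2 without Upf2cKO 1 (Egr1 and Egr3), 1 without control 1 and 1 without Upf2cKO 2 (Dusp1 both times), and 3 without both first replicates, a choice made after the data were seen. A minimum of 2 CPM left Arc, Fos and Npas4 untested. Of 177 recomputed changes of the 9 genes, 153 kept direction and side of the threshold, 0 lost a call, 10 gained one and 14 changed sign. The other named genes gave 891, of which 863 kept both, 8 lost a call, 5 gained one with the sign kept and 15 changed sign.

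Sign changes concerned log2 changes that had not passed with all 8 libraries. Arc ranged from −0.20 to 0.74 when 1 library was left out, and Egr1 was 0.037 without control 4 and Upf2cKO 4. Npas4 was −0.022 under the median of ratios, −0.039 under the trimmed mean, −0.16 without both first replicates and −0.20 to 0.18 with 1 library left out. Ier2 was 0.059 on TPM, 0.082 without control 4 and Upf2cKO 4 and −0.073 to 0.046 with 1 library left out. Elk1 was −0.0069 and −0.025, and Elavl3 −0.064 and −0.082, under the median of ratios and the trimmed mean, and Elavl3 ranged from −0.0058 to 0.075 with 1 library left out. The genes like Arc ranged, with 1 library left out, from −0.15 to 0.84 (Myrf), −0.36 to 0.71 (Lgi3), −0.36 to 0.53 (Slc24a2), −0.37 to 0.74 (Lynx1) and −0.56 to 0.45 (Camk2a). Without both first replicates Lgi3 was −0.060, Slc24a2 −0.19, Lynx1 −0.060 and Camk2a −0.35. Of the changes that turned sign, those of Camk2a alone passed once turned. Its limma adjusted p was 0.0182 without Upf2cKO 1 and 0.00307 without both first replicates. The cause was not tested.

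Between 8947 and 11656 genes were called, against 10441. The share of calls that were higher was 58.3%, and 68.8% on TPM, 46.9% under the median of ratios and 44.8% under the trimmed mean, which shifted the median of all genes by −0.11. Same-numbered libraries deviated together with correlations of 0.423, 0.052, 0.523 and 0.186, which do not all pass 0.1, so the numbers were not taken as pairs. With the replicate block 10549 genes were called and Dusp1 had an adjusted p of 0.0219. Not every library correlated best with its own number, since control 2 was closest to Upf2cKO 3 at 0.328. Depth limits Fosb most, with 19 reads in its lowest library.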

Other observations

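Ptgs2, Rasgrp1 and Nptx1, from the list of 22 activity-dependent effector genes, were chosen here after their values were seen. They were also highest in Upf2cKO 1 but do not stand for that list. Homer1 and Syt4, at 93.7 and 280 CPM in Upf2cKO 1, were lower there than in any control. The sum of the 22 genes was 922 CPM in Upf2cKO 1, 693 to 791 in Upf2cKO 2 to 4 and 1041 in control 1. Ptgs2, the inducible cyclooxygenase, was at 2.24 CPM in Upf2cKO 1 against 0.04 to 0.10 in Upf2cKO 2 to 4. In control 1 it was at 0.12 CPM against 0.04 to 0.13 in controls 2 to 4. Rasgrp1, an activator of Ras, was at 43.5 CPM against 1.97 to 2.74, and at 9.21 CPM in control 1 against 3.70 to 5.52. Nptx1, a secreted protein that clusters AMPA receptors, was at 60.9 CPM against 16.3 to 18.2, and at 28.7 CPM in control 1, within the 25.1 to 28.8 of controls 2 to 4. The excess of Upf2cKO 1 over its group was 10.5 CPM for Arc, 296 for Camk2a and 56.6 for Mobp, and that of control 1 was 1.89, 41.5 and 8.18 CPM.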
